A study of Mus musculus with 8 samples.

Results

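Messenger RNA levels of 39 non-collagen matrix genes were compared between mouse livers in a model of liver cancer and control livers, and between model livers with and without a herbal treatment. The 39 genes were chosen by name as matrix glycoproteins and proteoglycans. This rule uses no measured value, but it was chosen with earlier results of these data known. All 39 were among the 17164 genes of the deposited table. They comprise 3 glycoproteins that circulate in plasma or are secreted as soluble proteins (Fn1, Vtn and Ecm1), 6 elastic fibre and microfibril genes, 5 fibulins, 6 matricellular genes, 6 small leucine-rich proteoglycans, 3 large proteoglycans, 7 laminin chains, and 3 nidogen and matrilin genes.

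Livers of male C57BL/6 mice were sequenced in 4 groups of 2. Mice of the DEN+CCl4 group were injected intraperitoneally with the liver carcinogen diethylnitrosamine (DEN, 0.67% v/w) when 2 weeks old. From 8 weeks until they were killed at 22 weeks they were injected 2 times a week with carbon tetrachloride (CCl4, 20% in olive oil), a hepatotoxin that causes scarring. Mice of the DWYG-M and DWYG-H groups had the same injections and were dosed from 17 weeks with a herbal preparation, Diwu Yanggan (DWYG), at 1 (DWYG-M) or 2 (DWYG-H) multiples of the dose equivalent to clinical use. The control group was injected with saline where the others had DEN, and no CCl4 or olive oil is named for it, so the agents and their vehicle cannot be told apart in a comparison with control. Of 24 mice, 6 per group, 2 livers per group were picked at random for sequencing, so the spread within each group is that between 2 livers. The series title places the study in the field of YAP signalling, a pathway that senses mechanical tension and acts on DNA through TEAD factors.

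The matrix around liver cells is thin in the healthy organ: it lacks a continuous basement membrane along the sinusoids, the capillaries that carry blood past the hepatocytes. During scarring, stellate cells and portal fibroblasts turn into myofibroblasts and lay down collagens together with the proteins described here. Elastic fibres form when elastin is deposited on a scaffold of fibrillin microfibrils with the help of fibulins, laminins and nidogens build basement membranes together with the proteoglycans perlecan and agrin, small leucine-rich proteoglycans bind collagen fibrils, and matricellular proteins signal to cells more than they bear load.

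Expected read counts, which are estimates that may share a read between genes, summed to between 17345627 and 19191382 per library, and between 10101 and 11556 genes reached an FPKM of 1. FPKM counts fragments per length of transcript and per library size, so levels in FPKM can be set side by side between genes. Hepatocyte markers dominated every library, with a summed level of 58539 to 95750 FPKM over 6 genes. Of these 6, 0 passed the test in DEN+CCl4 against control livers, where 15.1% of all tested genes were called higher and 7.12% lower. Of the 6 listed pancreas genes, which check for tissue from the neighbouring organ, 4 were in the table, and Prss2 and Pnlip were listed at 0 in all libraries except DWYG-M replicate 1 (0.22 and 0.09 FPKM). Cela2a lay between 0 and 0.45 FPKM. Cela1, a further elastase gene of the list, was present in every liver, with 21.6 and 30.7 FPKM in DEN+CCl4 livers, 27.2 and 13.2 FPKM in DWYG-M livers, 32.8 and 19.1 FPKM in DWYG-H livers, and 10.9 and 10.9 FPKM in control livers. Both DEN+CCl4 livers were above both control livers for Cela1, and its log2 fold change of 1.01 (SE 0.40, adjusted p = 0.112) was not called. Its part in the matrix results was not tested. All 28 pairs of libraries held different values.

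Differences were tested with edgeR's quasi-likelihood test on counts in 1 model of all 8 libraries, and a gene was called at an adjusted p under 0.05 (Benjamini-Hochberg over the 11606 genes that reached 1 FPKM in 2 or more libraries). Log2 fold changes and adjusted p-values below are from this model unless another tool is named. It scales libraries so that most genes do not differ: the median log2 fold change of all tested genes in DEN+CCl4 against control livers was -0.01, against 0.21 when log2(FPKM + 1) was compared directly, so fold changes of the model run somewhat below ratios of FPKM. Of the 39 members, 34 entered the test. The other 5, Aspn, Lama2, Mfap5, Ogn and Vcan, were too low and are given as levels.

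Most of the matrix genes were higher in DEN+CCl4 livers than in control livers. Of the 34 tested members, 26 rose and 1, Ecm1, fell, where 15.1% of all tested genes were called higher and 7.12% lower. Of the 34, 12 reached an FPKM of 1 only in livers that had received DEN and CCl4. These were Fbn1, Eln, Mfap2, Fbln1, Fbln2, Thbs1, Thbs2, Tnc, Fmod, Lama5, Lamb2 and Matn2. For this reason the count was also taken over the 22 members that reached it in a control liver. Of the 22, 14 rose and 1 fell, with 9.84% of genes so filtered called higher and 7.87% lower. With no filter on low values, 28 of 39 members were called higher and 1 lower, against 12.9% and 5.83% of 17127 genes. The livers of the 2 groups did not overlap for 31 higher members (47.1% of tested genes) and 1 lower member (11.9%). The median log2 fold change was 1.66 over the 34 tested members and 1.17 over the 22. Without Fn1 and Vtn, the summed level of the members was 642 and 676 FPKM in DEN+CCl4 livers, 451 and 489.7 in DWYG-M livers, 431 and 449 in DWYG-H livers, and 218 and 245 in control livers. Each DEN+CCl4 liver lay above each DWYG liver in this sum, and each DWYG liver above each control liver. In whole liver, more cells of a type and more RNA per cell cannot be told apart.

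**Figure D1:**
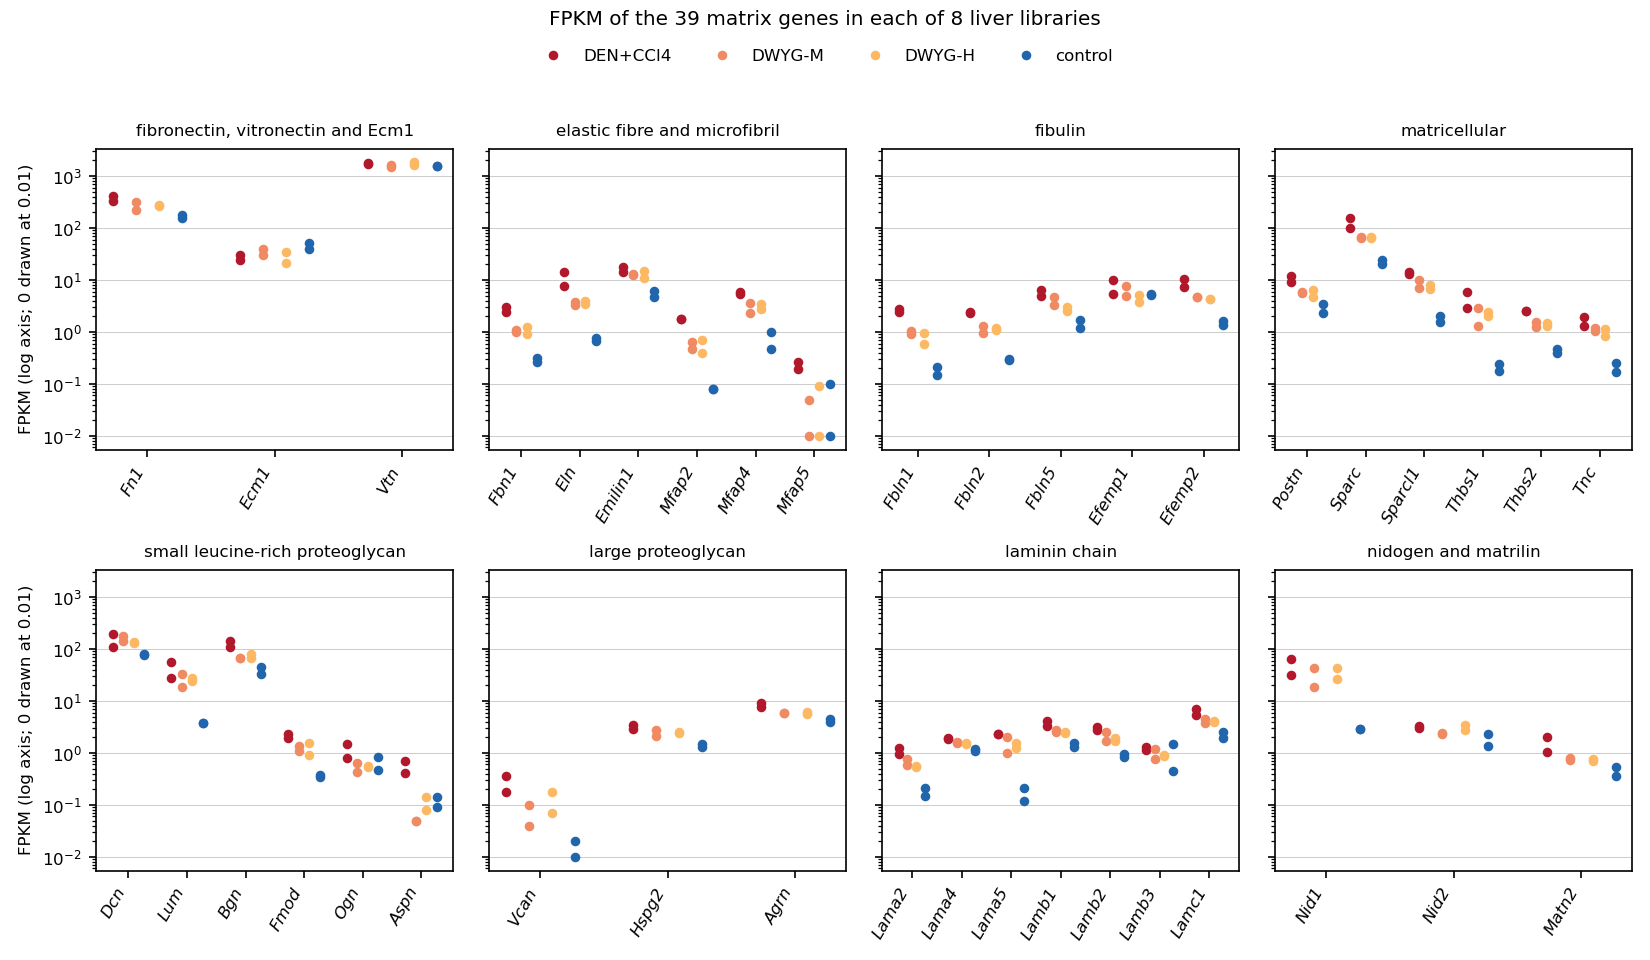
FPKM of the 39 matrix genes (log axis, values of 0 drawn at 0.01) in each of the 8 livers, by role, with DEN+CCl4, DWYG-M, DWYG-H and control livers from left to right within each gene. Vtn lies between 1477 and 1837 FPKM in every liver. For 25 of the 39 genes all 4 DWYG livers lie between the DEN+CCl4 and the control livers, with the control livers lowest. The 2 doses show no common order.

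Among the plasma and soluble glycoproteins, no gene was called higher. Fn1 (Entrez gene 14268), fibronectin, which hepatocytes secrete into plasma and fibroblasts assemble into fibrils, had 332 and 422 FPKM in DEN+CCl4 livers, 322 and 223 FPKM in DWYG-M livers, 269 and 281 FPKM in DWYG-H livers, and 155 and 175 FPKM in control livers. The DEN+CCl4 and control livers did not overlap, yet the log2 fold change of 0.93 (SE 0.29, adjusted p = 0.0527) missed the threshold. DESeq2 and limma called it higher, as did the model without DEN+CCl4 replicate 1, with adjusted p between 0.00192 and 0.0277. Vtn (Entrez gene 22370), vitronectin, a plasma adhesion protein made by hepatocytes, was the most abundant member, with 1775 and 1734 FPKM in DEN+CCl4 livers, 1477 and 1669.8 FPKM in DWYG-M livers, 1605 and 1837 FPKM in DWYG-H livers, and 1550.2 and 1584 FPKM in control livers. All of its values lay close together and its log2 fold change was -0.11 (SE 0.22, adjusted p = 0.774), with a sign that turned positive on the FPKM scale (0.16) and on the TPM scale (0.49).

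Ecm1 (Entrez gene 13601), extracellular matrix protein 1, a secreted glycoprotein of hepatocytes, moved the other way. It had 29.7 and 24.4 FPKM in DEN+CCl4 livers, 30.1 and 39.6 FPKM in DWYG-M livers, 20.8 and 34.8 FPKM in DWYG-H livers, and 39.04 and 52.5 FPKM in control livers. Both DEN+CCl4 livers lay below both control livers, and the log2 fold change was -1.05 (SE 0.28, adjusted p = 0.0314). This call was lost with limma and on leaving out control replicate 2 or either DEN+CCl4 library (adjusted p between 0.0662 and 0.235), while the sign held in each.

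Elastic fibre genes were the class with the highest median log2 fold change between DEN+CCl4 and control livers (2.98), and all 5 tested members rose. Of these, Fbn1, Eln and Mfap2 stayed below an FPKM of 1 in both control livers. They passed the filter only through livers that had received DEN and CCl4, so the rank of this class rests in part on the filter. Fbn1 (Entrez gene 14118), fibrillin-1, the backbone of microfibrils, had 2.40 and 3.02 FPKM in DEN+CCl4 livers, 1.00 and 1.07 FPKM in DWYG-M livers, 0.91 and 1.27 FPKM in DWYG-H livers, and 0.26 and 0.31 FPKM in control livers. Neither DEN+CCl4 liver overlapped with any other, and the log2 fold change against control was 2.98 (SE 0.27, adjusted p = 0.000791). Eln (Entrez gene 13717), elastin, the rubber-like core of the fibre, had 7.65 and 14.4 FPKM in DEN+CCl4 livers, 3.73 and 3.37 FPKM in DWYG-M livers, 3.44 and 3.87 FPKM in DWYG-H livers, and 0.75 and 0.66 FPKM in control livers. The 2 DEN+CCl4 livers differed from each other by 1.88 times, but the lower of them was still above all DWYG livers, and the log2 fold change against control was 3.74 (SE 0.37, adjusted p = 0.00101).

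Emilin1 (Entrez gene 100952), a glycoprotein at the interface of elastin and microfibrils, was the most abundant of the class, with 14.2 and 17.5 FPKM in DEN+CCl4 livers, 12.9 and 12.6 FPKM in DWYG-M livers, 10.8 and 15.0 FPKM in DWYG-H livers, and 4.65 and 6.28 FPKM in control livers. Here the DWYG-H livers reached into the range of the DEN+CCl4 livers, and the log2 fold change against control was 1.27 (SE 0.26, adjusted p = 0.0126). That call was lost without control replicate 1 or without DEN+CCl4 replicate 2 (adjusted p 0.0508 and 0.075). Mfap4 (Entrez gene 76293), a microfibril-associated protein that binds elastin, averaged 5.61 ± 0.38 FPKM in DEN+CCl4 livers and 0.73 ± 0.39 FPKM in control livers (SD, n = 2 each), and its log2 fold change was 2.67 (SE 0.43, adjusted p = 0.00502).

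Mfap2 (Entrez gene 17150), a small microfibril glycoprotein, had 1.81 and 1.80 FPKM in DEN+CCl4 livers, 0.47 and 0.63 FPKM in DWYG-M livers, 0.39 and 0.69 FPKM in DWYG-H livers, and 0.08 and 0.08 FPKM in control livers. It was called (adjusted p = 0.00506), but its control level rested on 2 reads in all, against 48 in the DEN+CCl4 livers. The ratio corrected for library size was 18.9, with a 95% interval of 4.95 to 160.3 that covers counting error only. Mfap5 (Entrez gene 50530), a further microfibril protein, stayed below 0.3 FPKM in every liver and was not tested.

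Of the 5 fibulins, calcium-binding glycoproteins that tie elastin to microfibrils and basement membranes, 4 rose. Fbln1 (Entrez gene 14114), fibulin-1, had 2.71 and 2.42 FPKM in DEN+CCl4 livers, 0.93 and 1.06 FPKM in DWYG-M livers, 0.58 and 0.94 FPKM in DWYG-H livers, and 0.21 and 0.15 FPKM in control livers. The DEN+CCl4 livers were well separated from all others, and the log2 fold change against control was 3.57 (SE 0.35, adjusted p = 0.00101). Fbln2 (Entrez gene 14115) had 2.31 and 2.44 FPKM in DEN+CCl4 livers, 1.32 and 0.94 FPKM in DWYG-M livers, 1.20 and 1.10 FPKM in DWYG-H livers, and 0.29 and 0.30 FPKM in control livers. Its order was the same, with a log2 fold change of 2.75 (SE 0.28, adjusted p = 0.00108).

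Efemp2 (Entrez gene 58859), fibulin-4, which is required for elastic fibre assembly, had 7.36 and 10.7 FPKM in DEN+CCl4 livers, 4.69 and 4.63 FPKM in DWYG-M livers, 4.36 and 4.38 FPKM in DWYG-H livers, and 1.39 and 1.61 FPKM in control livers. Its groups were separate as well, with a log2 fold change of 2.33 (SE 0.30, adjusted p = 0.00226). Fbln5 (Entrez gene 23876), fibulin-5, which also helps to assemble elastic fibres, averaged 5.70 ± 0.95 FPKM in DEN+CCl4 livers and 1.42 ± 0.35 FPKM in control livers (SD, n = 2 each), a log2 fold change of 1.67 (SE 0.30, adjusted p = 0.00812) that was lost without control replicate 1 (adjusted p = 0.0504). Efemp1 (Entrez gene 216616), fibulin-3, was the exception, with 9.94 and 5.34 FPKM in DEN+CCl4 livers, 5.0 and 7.80 FPKM in DWYG-M livers, 3.80 and 5.10 FPKM in DWYG-H livers, and 5.07 and 5.47 FPKM in control livers. DEN+CCl4 replicate 1 was above both control livers and replicate 2 was between them, and the log2 fold change of 0.23 (SE 0.31, adjusted p = 0.63) turned to -0.14 without DEN+CCl4 replicate 1.

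All 6 matricellular genes rose, with a median log2 fold change of 2.45. Of these, Thbs1, Thbs2 and Tnc reached an FPKM of 1 only in livers that had received DEN and CCl4. Sparcl1 (Entrez gene 13602), hevin, a relative of SPARC found in vessel walls and mesenchymal cells, had 14.4 and 12.9 FPKM in DEN+CCl4 livers, 7.02 and 9.82 FPKM in DWYG-M livers, 6.76 and 7.85 FPKM in DWYG-H livers, and 2.02 and 1.57 FPKM in control livers. It had the smallest p of all members, with a log2 fold change of 2.66 (SE 0.21, adjusted p = 0.00049). Sparc (Entrez gene 20692), osteonectin, a collagen-binding protein that affects fibril assembly, was the most abundant of the class, with 98.3 and 156 FPKM in DEN+CCl4 livers, 67.6 and 64.8 FPKM in DWYG-M livers, 67.5 and 64.9 FPKM in DWYG-H livers, and 20.8 and 24.6 FPKM in control livers. All 4 DWYG livers lay within 3 FPKM of each other, below both DEN+CCl4 livers and above both control livers, and the log2 fold change of DEN+CCl4 against control was 2.23 (SE 0.29, adjusted p = 0.0023). Thbs2 (Entrez gene 21826), thrombospondin-2, which binds matrix proteases and restrains vessel growth, had 2.51 and 2.48 FPKM in DEN+CCl4 livers, 1.27 and 1.55 FPKM in DWYG-M livers, 1.33 and 1.48 FPKM in DWYG-H livers, and 0.39 and 0.47 FPKM in control livers. Replicates were within 0.3 FPKM of each other in each group, and the log2 fold change was 2.25 (SE 0.22, adjusted p = 0.00103).

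Thbs1 (Entrez gene 21825), thrombospondin-1, an activator of latent TGF-β that is also stored in platelets, had 2.92 and 6.01 FPKM in DEN+CCl4 livers, 2.95 and 1.32 FPKM in DWYG-M livers, 1.99 and 2.42 FPKM in DWYG-H livers, and 0.18 and 0.24 FPKM in control livers. Both DEN+CCl4 livers were above both control livers, with a log2 fold change of 4.17 (SE 0.57, adjusted p = 0.00277), but DEN+CCl4 replicate 1 lay just below DWYG-M replicate 1. Platelet markers moved with it in part: Pf4 had 6.74 and 4.27 FPKM in DEN+CCl4 livers and 1.06 and 0.66 FPKM in control livers, while Itga2b had 0.65 and 0.59 FPKM in DEN+CCl4 livers and 0.74 and 0.52 FPKM in control livers. Of the 4 platelet genes only Pf4 was high enough to test, and their part in the Thbs1 result was not tested. Tnc (Entrez gene 21923), tenascin-C, a glycoprotein of wounds and tumour stroma, averaged 1.65 ± 0.46 FPKM in DEN+CCl4 livers and 0.21 ± 0.057 FPKM in control livers (SD, n = 2 each), with a log2 fold change of 2.73 (SE 0.38, adjusted p = 0.00311). Postn (Entrez gene 50706), periostin, which links collagen to tenascin-C and integrins, averaged 10.8 ± 2.02 FPKM in DEN+CCl4 livers and 2.88 ± 0.74 FPKM in control livers (SD, n = 2 each), with a log2 fold change of 1.65 (SE 0.26, adjusted p = 0.00449).

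Of the 4 tested small leucine-rich proteoglycans, 3 rose. Lum (Entrez gene 17022), lumican, a regulator of collagen fibril thickness, had 55.1 and 28.1 FPKM in DEN+CCl4 livers, 18.6 and 33.6 FPKM in DWYG-M livers, 27.9 and 24.7 FPKM in DWYG-H livers, and 3.85 and 3.79 FPKM in control livers. Control livers were far below all others, DEN+CCl4 replicate 2 lay within the range of the DWYG livers, and the log2 fold change was 3.15 (SE 0.36, adjusted p = 0.00163). Fmod (Entrez gene 14264), fibromodulin, which guides collagen cross-linking, had 1.90 and 2.27 FPKM in DEN+CCl4 livers, 1.07 and 1.34 FPKM in DWYG-M livers, 0.93 and 1.56 FPKM in DWYG-H livers, and 0.35 and 0.37 FPKM in control livers. The DEN+CCl4, DWYG and control livers did not overlap, while the 2 DWYG doses did, and the log2 fold change of DEN+CCl4 against control was 2.26 (SE 0.35, adjusted p = 0.00475). Bgn (Entrez gene 12111), biglycan, which binds collagen and can signal through Toll-like receptors, had 109.7 and 144 FPKM in DEN+CCl4 livers, 68.3 and 67.2 FPKM in DWYG-M livers, 66.3 and 79.6 FPKM in DWYG-H livers, and 33.1 and 44.1 FPKM in control livers. The order was again DEN+CCl4, DWYG and control, and the log2 fold change of 1.45 (SE 0.26, adjusted p = 0.0073) just missed the threshold without control replicate 1 (adjusted p = 0.0512).

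Dcn (Entrez gene 13179), decorin, which binds collagen and TGF-β, was the most abundant proteoglycan, with 191 and 111 FPKM in DEN+CCl4 livers, 140.4 and 180.1 FPKM in DWYG-M livers, 130.2 and 134 FPKM in DWYG-H livers, and 81.4 and 78.5 FPKM in control livers. It was higher in all 6 livers that had received DEN and CCl4 than in control livers, but its log2 fold change of 0.62 (SE 0.23, adjusted p = 0.0865) was not called. Its 2 DEN+CCl4 livers differed by 1.72 times, more than the 4 DWYG livers differed among themselves, and edgeR without DEN+CCl4 replicate 2 called it, as did DESeq2. Ogn (Entrez gene 18295), osteoglycin, had 1.47 and 0.80 FPKM in DEN+CCl4 livers and 0.83 and 0.48 FPKM in control livers, and Aspn (Entrez gene 66695), asporin, had 0.71 and 0.41 FPKM in DEN+CCl4 livers and 0.14 and 0.09 FPKM in control livers. Both are small leucine-rich proteins, and neither was tested.

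Both tested large proteoglycans rose, with log2 fold changes below 1. Hspg2 (Entrez gene 15530), perlecan, a heparan sulphate proteoglycan of basement membranes, had 2.89 and 3.52 FPKM in DEN+CCl4 livers, 2.77 and 2.14 FPKM in DWYG-M livers, 2.40 and 2.52 FPKM in DWYG-H livers, and 1.52 and 1.32 FPKM in control livers. DEN+CCl4, DWYG and control livers did not overlap, and the log2 fold change of DEN+CCl4 against control was 0.92 (SE 0.20, adjusted p = 0.0168). Agrn (Entrez gene 11603), agrin, also a heparan sulphate proteoglycan, had 7.69 and 9.20 FPKM in DEN+CCl4 livers, 5.96 and 5.78 FPKM in DWYG-M livers, 5.57 and 6.01 FPKM in DWYG-H livers, and 4.58 and 3.99 FPKM in control livers. The DWYG livers stood nearer to the control livers than to the DEN+CCl4 livers, and the log2 fold change of DEN+CCl4 against control was 0.77 (SE 0.17, adjusted p = 0.0184). Neither call held when control replicate 1, control replicate 2 or DEN+CCl4 replicate 2 was left out, with adjusted p between 0.0603 and 0.122. Vcan (Entrez gene 13003), versican, a hyaluronan-binding chondroitin sulphate proteoglycan, was barely present, with 0.36 and 0.18 FPKM in DEN+CCl4 livers and 0.02 and 0.01 FPKM in control livers, and was not tested.

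Laminins are heterotrimers of an α, a β and a γ chain, and 4 of the 6 tested chains rose. Lama5 (Entrez gene 16776), the α5 chain of many epithelial and vascular basement membranes, had 2.28 and 2.35 FPKM in DEN+CCl4 livers, 2.07 and 1.02 FPKM in DWYG-M livers, 1.57 and 1.24 FPKM in DWYG-H livers, and 0.21 and 0.12 FPKM in control livers. Control livers were far below all others, with a log2 fold change of 3.54 (SE 0.39, adjusted p = 0.00153). Lamb2 (Entrez gene 16779), the β2 chain, had 2.81 and 3.16 FPKM in DEN+CCl4 livers, 2.51 and 1.73 FPKM in DWYG-M livers, 1.70 and 1.94 FPKM in DWYG-H livers, and 0.95 and 0.83 FPKM in control livers. It too was above control in each DEN+CCl4 and DWYG liver, with a log2 fold change of 1.49 (SE 0.24, adjusted p = 0.00495).

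The 2 most abundant chains also rose. Lamc1 (Entrez gene 226519), the γ1 chain shared by most laminins, had 5.44 and 6.91 FPKM in DEN+CCl4 livers, 4.55 and 3.74 FPKM in DWYG-M livers, 4.02 and 4.07 FPKM in DWYG-H livers, and 1.96 and 2.53 FPKM in control livers. Its log2 fold change was 1.19 (SE 0.24, adjusted p = 0.0115). Lamb1 (Entrez gene 16777), the β1 chain, had 3.36 and 4.12 FPKM in DEN+CCl4 livers, 2.53 and 2.81 FPKM in DWYG-M livers, 2.40 and 2.53 FPKM in DWYG-H livers, and 1.28 and 1.55 FPKM in control livers. Its log2 fold change was 1.14 (SE 0.22, adjusted p = 0.0106), and both of these calls were lost without control replicate 1 (adjusted p 0.0713 and 0.0672). The chain with the largest fold change, Lama5, had a control level of 0.21 and 0.12 FPKM, while Lamc1 had 1.96 and 2.53 FPKM there.

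Lama4 (Entrez gene 16775), the α4 chain of vessel walls, had 1.87 and 1.95 FPKM in DEN+CCl4 livers, 1.60 and 1.57 FPKM in DWYG-M livers, 1.57 and 1.49 FPKM in DWYG-H livers, and 1.17 and 1.07 FPKM in control livers. Its DEN+CCl4, DWYG and control livers did not overlap, while the 2 DWYG doses did, but the log2 fold change of DEN+CCl4 against control, 0.51 (SE 0.18, adjusted p = 0.0782), was not called by edgeR on all 8 libraries, while limma called it, as did edgeR without DEN+CCl4 replicate 1. Lamb3 (Entrez gene 16780), a β3 chain of epithelia, had 1.30 and 1.14 FPKM in DEN+CCl4 livers, 0.76 and 1.19 FPKM in DWYG-M livers, 0.88 and 0.92 FPKM in DWYG-H livers, and 0.44 and 1.46 FPKM in control livers. Its control livers lay on either side of all others, and the log2 fold change of 0.06 (SE 0.52, adjusted p = 0.951) turned to -0.61 without control replicate 1. Lama2 (Entrez gene 16773), the α2 chain of muscle and nerve, had 0.97 and 1.26 FPKM in DEN+CCl4 livers and 0.15 and 0.21 FPKM in control livers, and was too low for the test.

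Nid1 (Entrez gene 18073), nidogen-1, which links laminin to type IV collagen, varied widely among the livers that had received DEN and CCl4. It had 31.3 and 65.2 FPKM in DEN+CCl4 livers, 44.0 and 18.5 FPKM in DWYG-M livers, 43.4 and 26.4 FPKM in DWYG-H livers, and 2.91 and 2.93 FPKM in control livers. DEN+CCl4 replicate 2 was the highest of all and DWYG-M replicate 2 the lowest of the 6. Control livers were within 0.02 FPKM of each other and far below, with a log2 fold change of 3.81 (SE 0.56, adjusted p = 0.00372). Nid2 (Entrez gene 18074), nidogen-2, which has a similar structure, had 3.31 and 2.96 FPKM in DEN+CCl4 livers, 2.45 and 2.32 FPKM in DWYG-M livers, 2.73 and 3.49 FPKM in DWYG-H livers, and 2.32 and 1.34 FPKM in control livers. Its DEN+CCl4 livers were above its control livers, but the log2 fold change of 0.52 (SE 0.23, adjusted p = 0.154) was not called. Matn2 (Entrez gene 17181), matrilin-2, an adaptor protein of filaments in the matrix, had 2.06 and 1.06 FPKM in DEN+CCl4 livers, 0.79 and 0.73 FPKM in DWYG-M livers, 0.78 and 0.71 FPKM in DWYG-H livers, and 0.54 and 0.36 FPKM in control livers. Its log2 fold change was 1.52 (SE 0.34, adjusted p = 0.0182), and the call was lost on leaving out DEN+CCl4 replicate 1, the liver with the higher value, or either control liver (adjusted p between 0.0507 and 0.118).

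**Figure D2:**
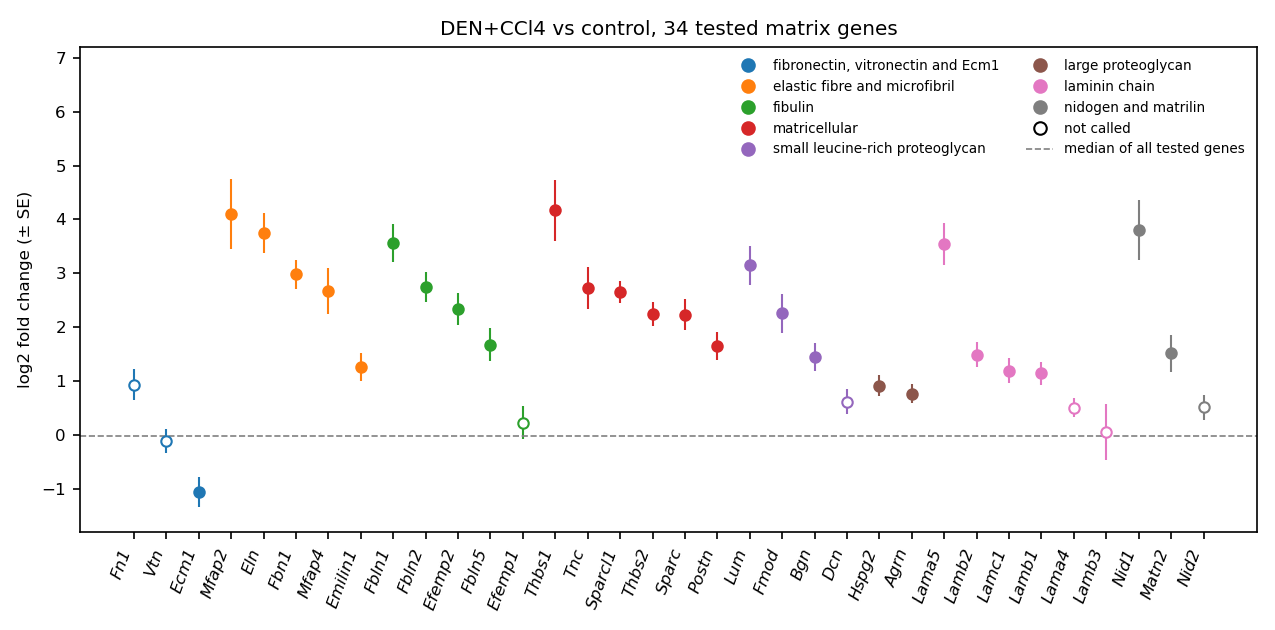
Log2 fold change of DEN+CCl4 over control livers (points, ± SE, edgeR) for the 34 tested matrix genes, by role, with filled points for the 27 called genes and the dashed line at the median of all tested genes. All 5 elastic fibre genes and all 6 matricellular genes lie above 1, Ecm1 lies below 0, and the value of Mfap2 rests on 2 control reads.

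The 2 DEN+CCl4 livers were not alike in their matrix genes. Dcn, Lum, Efemp1, Matn2, Ogn, Aspn and Vcan were 1.72 to 2.00 times higher in replicate 1 by FPKM. Among those higher in replicate 2 were Nid1 (2.08 times), Thbs1 (2.06 times), Eln (1.88 times) and Sparc (1.59 times). Summed activated myofibroblast markers also differed, at 132 FPKM in replicate 1 and 206 FPKM in replicate 2. For hepatocyte markers the sums were 60545 FPKM in replicate 1 and 95750 FPKM in replicate 2.

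Markers of several cell types moved with the members. The calls below are for DEN+CCl4 against control livers, where 15.1% of all tested genes were called higher and 7.12% lower. Activated myofibroblast markers (Acta2, Tagln, Timp1, Col1a1, Col1a2, Col3a1 and Pdgfra) summed to 132 and 206 FPKM in DEN+CCl4 livers, 66.4 and 58.7 in DWYG-M livers, 60.9 and 76.5 in DWYG-H livers, and 14.5 and 17.7 in control livers, and 7 of 7 rose in DEN+CCl4 against control livers. Cholangiocyte markers, which mark bile duct cells, summed to 28.4 and 30.3 FPKM in DEN+CCl4 livers, 8.20 and 10.6 in DWYG-M livers, 9.06 and 10.6 in DWYG-H livers, and 3.63 and 6.20 in control livers, and 4 of 5 rose. In both lists all 4 DWYG livers lay between the DEN+CCl4 and the control livers. Portal fibroblast and mesothelium markers summed to 16.0 and 20.3 FPKM in DEN+CCl4 livers, 9.41 and 9.69 in DWYG-M livers, 9.99 and 14.4 in DWYG-H livers, and 3.40 and 2.22 in control livers, with 4 of 5 tested genes called higher, while Gli1 stayed at 0 to 0.08 FPKM. Smooth muscle markers summed to 8.52 and 8.87 FPKM in DEN+CCl4 livers, 5.46 and 4.55 in DWYG-M livers, 3.80 and 4.08 in DWYG-H livers, and 2.53 and 2.83 in control livers, and 3 of 3 tested genes rose.

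The stellate, endothelial and macrophage lists held smaller shares of called genes, where 15.1% of all tested genes were called higher and 7.12% lower. The stellate and endothelial lists are too short to set their counts apart from these shares. Stellate cell markers summed to 79.3 and 80.0 FPKM in DEN+CCl4 livers, 68.8 and 79.8 in DWYG-M livers, 62.9 and 63.5 in DWYG-H livers, and 48.6 and 51.7 in control livers, with 2 of 8 tested genes called higher and Gfap at or below 0.13 FPKM in every liver. Endothelial markers summed to 129 and 93.5 FPKM in DEN+CCl4 livers, 131 and 130.4 in DWYG-M livers, 126 and 102 in DWYG-H livers, and 100.1 and 88.7 in control livers, with 0 of 7 called in either direction. Macrophage markers summed to 174 and 138 FPKM in DEN+CCl4 livers, 113 and 116 in DWYG-M livers, 134 and 126 in DWYG-H livers, and 119 and 97.0 in control livers, with 3 of 6 called higher. This sum hides large rises. Gpnmb had 19.8 and 29.4 FPKM in DEN+CCl4 livers and 0.11 and 0.05 in control livers, and Trem2 had 10.6 and 13.3 against 0.36 and 0.53. Cd68 was the third called. Clec4f, with 62.9 and 32.8 FPKM in DEN+CCl4 livers and 72.6 and 58.7 in control livers, was not called, nor were Adgre1 and Csf1r. The part of any of these cell types in the matrix results was not tested.

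**Figure D3:**
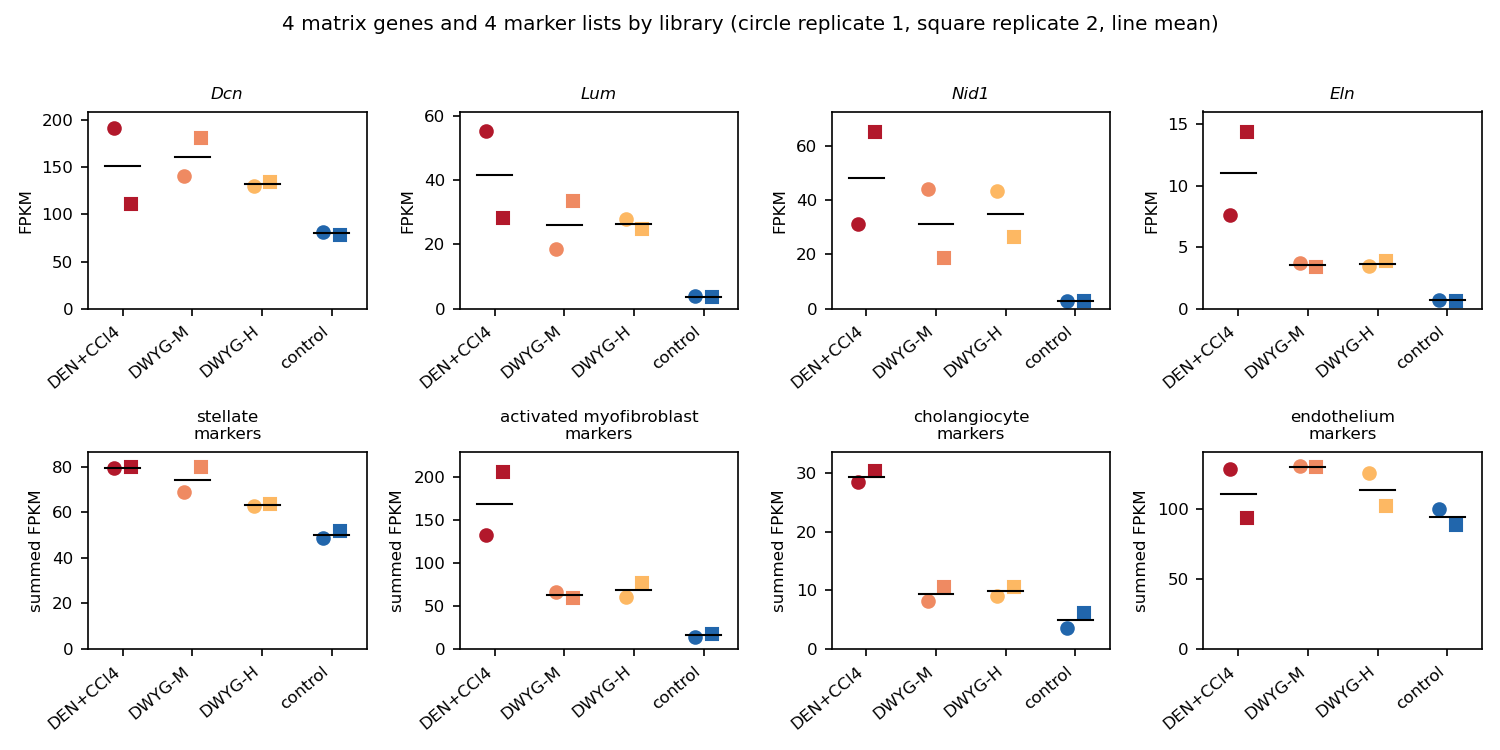
FPKM of Dcn, Lum, Nid1 and Eln (upper row) and summed FPKM of stellate, activated myofibroblast, cholangiocyte and endothelium markers (lower row) in each liver (circle replicate 1, square replicate 2, line mean of 2), with groups from left to right DEN+CCl4, DWYG-M, DWYG-H and control. Dcn and Lum are higher in DEN+CCl4 replicate 1, Nid1 and Eln in replicate 2, and the myofibroblast and cholangiocyte sums of the DWYG livers lie between those of the DEN+CCl4 and control livers.

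No matrix gene was called between DWYG and DEN+CCl4 livers. In DWYG-M against DEN+CCl4, 0 of 34 tested members passed in either direction, where 0.00862% of tested genes (1 gene) were called higher and 0.0% lower. In DWYG-H against DEN+CCl4, 0 of 34 passed, with 0.0% of tested genes called in either direction. At an unadjusted p under 0.05, 14 members were lower and 0 higher in DWYG-M, against 7.22% of genes lower and 5.43% higher. For DWYG-H, 17 members were lower and 0 higher, against 4.99% of genes lower and 3.5% higher. Some members passed the filter only through livers that had received DEN and CCl4, the DEN+CCl4 livers among them. Of the 22 members that reached an FPKM of 1 in a control liver, 6 were lower in DWYG-M and 9 in DWYG-H, and 0 higher. The share of all genes so filtered was not taken here. DESeq2 called 2 members lower in DWYG-M, Eln and Fbn1 (1.15% of genes), and 3 lower in DWYG-H, Eln, Fbln1 and Fbn1 (0.707% of genes). It called 0 members higher in either (0.62% of genes in DWYG-M and 0.327% in DWYG-H). Without DEN+CCl4 replicate 1, the edgeR log2 fold change of Eln was -2.06 in DWYG-M and -2.03 in DWYG-H. That fit rested on DEN+CCl4 replicate 2 alone, the liver with the higher Eln value (14.4 against 7.65 FPKM).

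The signs ran mostly one way. The log2 fold change was negative for 32 of 34 tested members in DWYG-M and for 31 of 34 in DWYG-H, with medians of -0.56 in DWYG-M and -0.70 in DWYG-H, while the medians of all tested genes were -0.02 in DWYG-M and -0.01 in DWYG-H. Both DWYG-M livers lay below both DEN+CCl4 livers for 27 members (25.6% of tested genes) and above both for 1, Ecm1 (13.5%). Both DWYG-H livers lay below both for 28 members (23.2%) and above both for 0 (10.6%). Over the 22 members that reached an FPKM of 1 in a control liver, 20 signs were negative in DWYG-M and 19 in DWYG-H. Their medians were -0.46 in DWYG-M and -0.53 in DWYG-H. For 16 of these 22 members, both livers of a dose lay below both DEN+CCl4 livers, at each dose. The share of all genes so filtered was not taken here. Both comparisons use the same 2 DEN+CCl4 livers, so their signs are not independent of each other. All 4 DWYG livers lay between the DEN+CCl4 and the control livers for 24 of the 34 members, against 11.2% of tested genes, and for 25 of all 39. They lay below both DEN+CCl4 livers for 24 of the 34, against 16.2%, and above both control livers for 29, against 40.2%.

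The members with the smallest p against DEN+CCl4 belonged to the elastic fibre, fibulin and matricellular classes, and none passed the threshold. Fbn1 had 1.00 and 1.07 FPKM in DWYG-M livers and 0.91 and 1.27 FPKM in DWYG-H livers, against 2.40 and 3.02 FPKM in DEN+CCl4 livers. Its log2 fold changes were -1.34 (SE 0.24, adjusted p = 0.213) in DWYG-M and -1.27 (SE 0.24, adjusted p = 0.25) in DWYG-H. Eln had 3.73 and 3.37 FPKM in DWYG-M livers and 3.44 and 3.87 FPKM in DWYG-H livers, against 7.65 and 14.4 FPKM in DEN+CCl4 livers. Here the log2 fold changes were -1.60 (SE 0.32, adjusted p = 0.213) in DWYG-M and -1.58 (SE 0.32, adjusted p = 0.25) in DWYG-H. For both genes the 4 DWYG livers were close together and apart from the 2 DEN+CCl4 livers.

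Fbln1 had 0.93 and 1.06 FPKM in DWYG-M livers and 0.58 and 0.94 FPKM in DWYG-H livers, against 2.71 and 2.42 FPKM in DEN+CCl4 livers, with log2 fold changes of -1.26 (SE 0.29, adjusted p = 0.215) in DWYG-M and -1.68 (SE 0.30, adjusted p = 0.25) in DWYG-H. For Fbln2, the log2 fold changes were -1.03 (SE 0.25, adjusted p = 0.228) in DWYG-M and -0.99 (SE 0.25, adjusted p = 0.348) in DWYG-H. Those of Thbs2 were -0.77 (SE 0.21, adjusted p = 0.266) in DWYG-M and -0.77 (SE 0.21, adjusted p = 0.361) in DWYG-H. Mfap2 in DWYG-M had -1.66 (SE 0.47, adjusted p = 0.273), and Sparcl1 in DWYG-H had -0.84 (SE 0.19, adjusted p = 0.299). The DWYG and DEN+CCl4 livers of these genes did not overlap in either comparison named. Both DWYG-M livers lay below both DEN+CCl4 livers for 25.6% of all tested genes, and both DWYG-H livers for 23.2%. Like Fbn1 and Eln, these genes were named for the smallest p in the same comparisons, so their separation adds no support. Fbln1 and Mfap2 would not have passed the filter without the DEN+CCl4 livers, where they were highest.

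The basement membrane and plasma genes had log2 fold changes nearer to 0 against DEN+CCl4 livers than the members just named, which were picked for their small p. So did some members of other classes, such as Emilin1, with -0.27 in DWYG-M and -0.26 in DWYG-H. Log2 fold changes of the 6 tested laminin chains lay between -0.53 and -0.21 in DWYG-M and between -0.67 and -0.26 in DWYG-H. Nid1, with a log2 fold change of -0.60 (SE 0.50) in DWYG-M and -0.44 (SE 0.50) in DWYG-H, overlapped with the DEN+CCl4 livers in both. Ecm1, the gene that fell in DEN+CCl4 livers, had 0.43 (SE 0.28) in DWYG-M and 0.11 (SE 0.28) in DWYG-H, not called in either. Dcn had 0.17 (SE 0.22) in DWYG-M and -0.11 (SE 0.22) in DWYG-H, and Vtn had -0.10 (SE 0.22) in DWYG-M and 0.03 (SE 0.22) in DWYG-H. The differences of Nid1, Ecm1, Dcn and Vtn were all within 2 SE of 0. Among the laminin chains, Lamb1, Lamb2 and Lamc1 lay more than 2 SE below 0 in DWYG-H, and none was called.

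**Figure D4:**
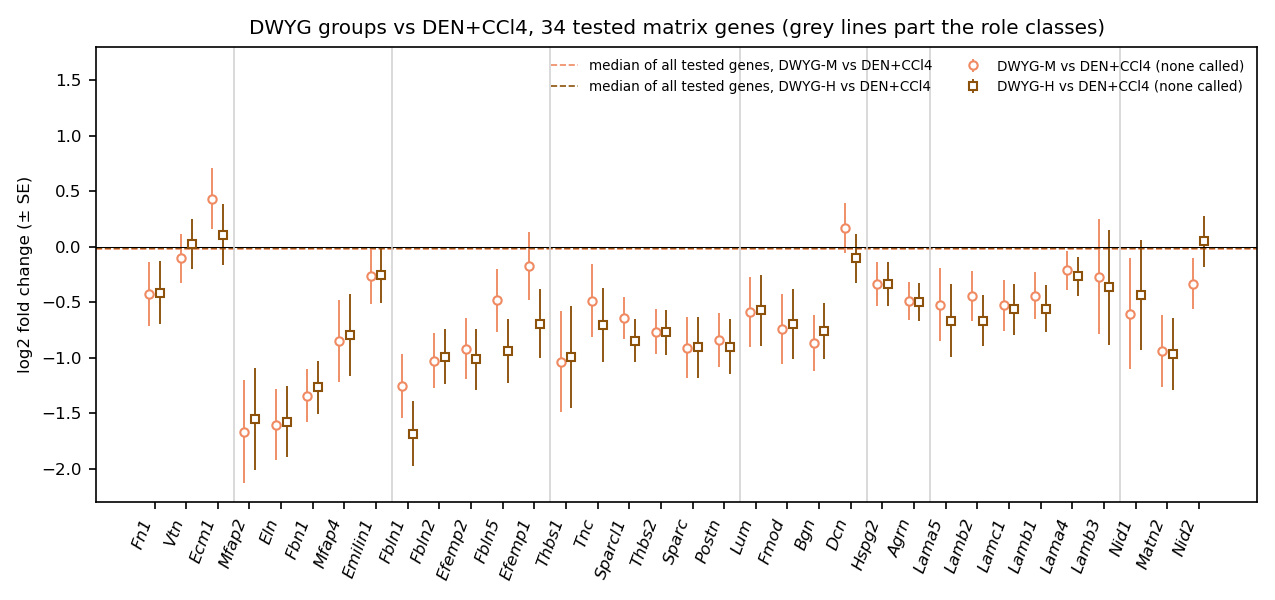
Log2 fold change of DWYG-M (circles) and DWYG-H livers (squares) over DEN+CCl4 livers (± SE, edgeR) for the 34 tested matrix genes, with roles parted by grey lines and dashed lines at the medians of all tested genes. Most points lie below 0, and those of Mfap2, Eln, Fbn1 and Fbln1 lie below -1 at both doses, though none was called.

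Against control livers, 14 of 34 tested members rose in DWYG-M livers, where 4.35% of tested genes were called higher. In DWYG-H livers 15 rose, with 6.59% called higher. Of the 22 members that reached an FPKM of 1 in a control liver, 5 rose in DWYG-M and 6 in DWYG-H. The other calls were of members that passed the filter only through livers that had received DEN and CCl4. The share of all genes so filtered was not taken for these 2 comparisons. None of the 34 was called lower at either dose, against 0.603% of genes in DWYG-M and 1.09% in DWYG-H. The unadjusted p was under 0.05 for 0 lower members in DWYG-M (5.24% of genes) and for 1, Ecm1, in DWYG-H (7.67%). DESeq2 called 0 lower in DWYG-M (1.4%) and Ecm1 in DWYG-H (2.51%). The counts of higher members rested on both control livers: with either left out, few or no members were called higher at either dose. Calls over all tested genes fell in these fits as well, so the loss was not confined to the matrix genes. Fewer members, and fewer of all tested genes, were also called higher in DWYG-M without DWYG-M replicate 1, and in DWYG-H without either DWYG-H liver. The median log2 fold change was 1.12 in DWYG-M and 0.92 in DWYG-H. Both DWYG-M livers were above both control livers for 29 members (49.2% of tested genes) and below both for 0 (7.98%). Both DWYG-H livers were above both for 31 (46.9%) and below both for 1, Ecm1 (10.3%).

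Called higher than control in all of DEN+CCl4, DWYG-M and DWYG-H were 13 members: Efemp2, Eln, Fbln1, Fbln2, Fbn1, Lama5, Lum, Nid1, Sparc, Sparcl1, Thbs1, Thbs2 and Tnc. All 3 comparisons share the 2 control livers, and the share of all tested genes called in all 3 was not taken. Of the 13, Eln, Fbln1, Fbln2, Fbn1, Lama5, Thbs1, Thbs2 and Tnc passed the filter only through livers that had received DEN and CCl4. Sparcl1 had the smallest p of the 13 in both DWYG comparisons, with a log2 fold change of 2.01 (SE 0.21, adjusted p = 0.00446) in DWYG-M and 1.81 (SE 0.21, adjusted p = 0.00346) in DWYG-H. Nid1 had the highest log2 fold change at both doses, with 3.21 (SE 0.55, adjusted p = 0.0187) in DWYG-M and 3.37 (SE 0.55, adjusted p = 0.0125) in DWYG-H.

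Some members called in DEN+CCl4 livers were not called at 1 or both doses. Lamb2 passed in DWYG-M (adjusted p = 0.0462) and not in DWYG-H (adjusted p = 0.0778). Mfap4 and Fmod passed in DWYG-H (adjusted p = 0.0388 for each) and not in DWYG-M (adjusted p = 0.0563 and 0.0558). A further 10 members rose in DEN+CCl4 livers and passed at neither dose, with log2 fold changes in DWYG-M and in DWYG-H as follows. The values were 0.28 and 0.27 for Agrn, 0.59 and 0.69 for Bgn, 1.00 and 1.01 for Emilin1, 1.19 and 0.74 for Fbln5, and 0.58 and 0.58 for Hspg2. They were 0.70 and 0.59 for Lamb1, 0.67 and 0.63 for Lamc1, 0.58 and 0.55 for Matn2, and 0.81 and 0.75 for Postn. Mfap2, the remaining gene, had 0.47 and 0.63 FPKM in DWYG-M and 0.39 and 0.69 FPKM in DWYG-H livers, over its 2 control reads. Each of these 10 was higher in both livers of each dose than in both control livers, as were 40.2% of all tested genes. On log2(FPKM + 1), the median of all genes against control was itself 0.17 in DWYG-M and 0.16 in DWYG-H. This order is therefore weak evidence of a difference, and the lack of a call does not show control levels. Whether their loss of the call differs from the 13 others was not tested.

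No matrix gene was called between the 2 doses. Of 34 tested members, 0 were called in DWYG-H against DWYG-M in either direction, where 0.0% of all genes were called, and 0 had an unadjusted p under 0.05 (1.15% of genes higher and 0.517% lower) or a DESeq2 call (0.0172% higher and 0.0258% lower). The median log2 fold change was -0.01, with 15 members positive and 19 negative. The 6 smallest p-values were those of Efemp1, with a log2 fold change of -0.52 (SE 0.31), Nid2 with 0.38 (SE 0.23), Fbln5 with -0.45 (SE 0.29), Fbln1 with -0.43 (SE 0.31), Dcn with -0.28 (SE 0.22) and Ecm1 with -0.32 (SE 0.28), each with an adjusted p of 1. The SE of the members' differences ran from 0.17 for Agrn to 0.53 for Mfap2 and Lamb3, so only differences between doses of several times that size could have been called.

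Genes related to the members were counted from lists written by function. Of 52 other matrix glycoproteins, 24 were tested, and 18 rose and 0 fell in DEN+CCl4 against control livers, where 15.1% of all tested genes were called higher and 7.12% lower. The median log2 fold change was 1.58. The 4 smallest p-values were those of Ccdc80, a matrix protein of fat and mesenchyme (2.59 (SE 0.20, adjusted p = 0.000461)), Spp1, osteopontin (3.08 (SE 0.27, adjusted p = 0.000791)), Smoc2, a relative of SPARC (2.96 (SE 0.30, adjusted p = 0.00112)), and Gas6, a ligand of TAM receptors (1.34 (SE 0.14, adjusted p = 0.00121)), as log2 fold changes. Spp1 averaged 362 ± 97.1 FPKM in DEN+CCl4 livers and 36.1 ± 3.32 FPKM in control livers (SD, n = 2 each). Of 18 other proteoglycans, 15 were in the table, and 7 were tested and 3 rose and 0 fell, against the same shares of all genes: Prg4, lubricin (1.42 (SE 0.17, adjusted p = 0.00181)), Esm1, endocan (3.71 (SE 0.59, adjusted p = 0.00494)), and Prelp, a leucine-rich heparin-binding protein (0.97 (SE 0.21, adjusted p = 0.0155)), whose call was lost without control replicate 1 or DEN+CCl4 replicate 2. Srgn, serglycin, an intracellular proteoglycan of blood cells, was next and was not called (0.77 (SE 0.26, adjusted p = 0.0687)).

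Of 29 matrix receptors, 24 were tested, and 11 rose and 0 fell, against 15.1% of all tested genes called higher and 7.12% lower, with a median log2 fold change of 0.68. Bcam, a receptor of laminin α5, had a log2 fold change of 2.45 (SE 0.24, adjusted p = 0.00101). It averaged 8.67 ± 1.41 FPKM in DEN+CCl4 livers and 1.32 ± 0.11 FPKM in control livers (SD, n = 2 each). Ddr1, a collagen receptor of epithelia, had 3.69 (SE 0.42, adjusted p = 0.00167), Itga2, the α2 integrin chain of a collagen receptor, had 4.76 (SE 0.70, adjusted p = 0.00382), and Cd44, a hyaluronan receptor, had 1.13 (SE 0.17, adjusted p = 0.00453). The 4 receptors were higher in both DEN+CCl4 livers than in both control livers, as were 47.1% of all tested genes. They were named for the smallest p in this same comparison, so their separation adds no support.

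Enzymes that build, sulphate or degrade glycosaminoglycans, the sugar chains of proteoglycans, were called at a share near that of all genes: of 34 tested, 6 rose and 1 fell, against 15.1% of all tested genes called higher and 7.12% lower, and the median log2 fold change was 0.16. Sulf1 and Sulf2, which remove sulphates from heparan sulphate at the cell surface, had log2 fold changes of 3.34 (SE 0.57, adjusted p = 0.0064) and 1.25 (SE 0.25, adjusted p = 0.0114). Chst12, a chondroitin sulphotransferase, had 1.39 (SE 0.39, adjusted p = 0.0378), and Hyal1, a lysosomal hyaluronidase, was lower with -0.72 (SE 0.19, adjusted p = 0.0314). The call of Chst12 was lost under 10 of 16 alternatives, DESeq2 among them, and that of Hyal1 under 7, with a log2 fold change as near to 0 as -0.14. Sulf1 lost its call only without control replicate 2, and Sulf2 only without control replicate 1, among those 16. All 4 tested proteases that cleave proteoglycans rose, with log2 fold changes of 2.27 (SE 0.30, adjusted p = 0.00254) for Htra3, 2.11 (SE 0.33, adjusted p = 0.0046) for Adamts5, 1.56 (SE 0.31, adjusted p = 0.0113) for Htra1 and 1.26 (SE 0.30, adjusted p = 0.0221) for Adamts1, the last 2 lost on leaving out 1 of 2 libraries each. None of these lists held a called gene in DWYG-M or DWYG-H against DEN+CCl4 livers.

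Promoters of the members were searched for 4 short motifs on both strands, because the series title names YAP, whose TEAD partners bind CATTCC. Windows of 250 bases before to 50 after a start site, from RefSeq on GRCm38.p6, were found for 27 members, with 36 windows in all. CATTCC was in 13.9% of the members' windows and in 14.7% of all 32851 windows. The AP-1 motif TGANTCA was in 5.56% against 7.81%, the TATA box TATAAA in 22.2% against 13.6%, and the Sp1 motif GGGCGG in 58.3% against 35.7%. The 5 members with CATTCC were Lamb3, Mfap2, Nid1, Ogn and Vtn, of which Mfap2 and Nid1 rose in DEN+CCl4 livers and Vtn did not pass the test. Their windows are printed to show this contrast, with capitals on GGAATG, the motif on the other strand. The window of Nid1 is at chr13:13437352-13437651, that of Mfap2 at chr4:141010174-141010473 and that of Vtn at chr11:78498870-78499169, each on the plus strand. The first base of the match lies 165 bases before the start site in Nid1 and 176 in Mfap2, and Vtn holds 2 matches.
Nid1: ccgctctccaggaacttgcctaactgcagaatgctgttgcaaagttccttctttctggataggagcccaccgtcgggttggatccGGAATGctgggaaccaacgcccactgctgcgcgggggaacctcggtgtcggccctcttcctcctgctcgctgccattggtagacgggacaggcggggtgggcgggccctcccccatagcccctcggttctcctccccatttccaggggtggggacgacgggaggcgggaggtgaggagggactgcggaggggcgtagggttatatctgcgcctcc
Mfap2: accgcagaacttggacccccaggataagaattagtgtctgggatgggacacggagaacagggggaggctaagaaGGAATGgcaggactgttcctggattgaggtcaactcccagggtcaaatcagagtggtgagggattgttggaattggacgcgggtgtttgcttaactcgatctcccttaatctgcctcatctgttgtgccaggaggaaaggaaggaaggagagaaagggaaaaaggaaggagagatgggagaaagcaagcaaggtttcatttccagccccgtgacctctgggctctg
Vtn: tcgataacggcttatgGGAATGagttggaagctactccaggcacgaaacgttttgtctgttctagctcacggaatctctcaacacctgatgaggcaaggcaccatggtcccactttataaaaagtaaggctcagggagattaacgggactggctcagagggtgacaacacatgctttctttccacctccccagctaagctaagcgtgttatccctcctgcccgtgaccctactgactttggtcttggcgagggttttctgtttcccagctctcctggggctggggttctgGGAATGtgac
A match is a string of letters and says nothing of binding in these livers.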

How the data were processed

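RNA of 8 mouse livers was analysed from 1 deposited table of 17164 genes, named by symbol and Entrez gene ID. Total RNA (2 µg, Ambion kit) was made into SMART-Seq mRNA LP libraries (Takara), per the labels' protocols. The genome build GRCm39 is named in the submitters' processing notes. Which aligner, counter, annotation and strand setting were used is not given in the sources used here, so reads of overlapping or antisense genes cannot be told apart. Per the file headers, the authors deposited a read count, an FPKM value, a TPM value and a normalized count per library. Expected counts is the unit taken for the deposited read counts, since 89.8% to 91.5% per library were whole within 0.005, and were rounded. The deposited FPKM values are per transcript length and library size, per the file headers. The deposited TPM values served only as an alternative. The other 24 columns, 16 group averages and 8 of normalized counts, were not used. The plan allowed for either counts or FPKM, and counts were found.

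Counts were tested with edgeR 4.0.16 (R 4.3.3; glmQLFit and glmQLFTest, TMM scaling) in 1 model of 4 groups with 4 residual degrees of freedom and a common dispersion of 0.0377. SE values derive from the F statistic. Alternatives were other size factors, DESeq2 1.42.0, no filter, limma 3.58.1 on log2(FPKM + 1), log2(FPKM + 0.1) and log2(TPM + 1), a fit of only the 2 groups compared, a replicate block, and leaving out each library.

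All 39 members are named. Values per library are given for the 2 members of each role with the smallest p in DEN+CCl4 against control, for members not called or lower, for the 2 most abundant, and for others where a result turns on them. In comparisons with fewer than 6 calls, the 6 smallest p were named, and 4 per related list. The members, the lists and the rule were chosen with earlier results of these data known. The labels do not say more of the replicates than that they are separate livers. The number of livers, 2 per group, limits the precision.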

Additional observations from a re-analysis of the deposited data

How the results depend on the processing

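Of the 27 members called in DEN+CCl4 against control livers, 18 kept the call under all 16 alternatives. Leaving out either control liver lowered the number of members called higher, and that of all tested genes called higher. Ecm1, the only member called lower, lost its call in some fits with 1 library left out. Limma called 0 members lower on each of its 3 scales, against 1.91% of tested genes on log2(FPKM + 1), 1.59% on log2(FPKM + 0.1) and 1.16% on log2(TPM + 1). Log2 fold changes changed sign for Efemp1 (-0.14 without DEN+CCl4 replicate 1, in a range of -0.14 to 0.54 over single libraries left out), Lamb3 (-0.61 without control replicate 1, in a range of -0.61 to 1.24) and Vtn (0.16 with limma on log2(FPKM + 1), 0.16 with log2(FPKM + 0.1) and 0.49 with log2(TPM + 1)). The median log2 fold change of all genes in that comparison was -0.01 in edgeR, 0.21 on log2(FPKM + 1), 0.25 on log2(FPKM + 0.1) and 0.50 on log2(TPM + 1). Calls over all genes also differed, with both the scale and the test changed: 1756 higher and 826 lower in edgeR, 2501 and 222 with limma on log2(FPKM + 1), 2470 and 184 with log2(FPKM + 0.1), and 5272 and 135 with log2(TPM + 1). With only the 2 groups compared these were 1344 and 325.

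With DESeq2, members lower than in DEN+CCl4 livers numbered 2 in DWYG-M (1.15% of tested genes) and 3 in DWYG-H (0.707%). Members higher than control in DWYG-M numbered 22 with limma on log2(FPKM + 0.1), against 9.28% of tested genes, and 28 with log2(TPM + 1), against 22.9%. In DWYG-H they numbered 29 with log2(TPM + 1), against 28.3%, and 1 member was lower with DESeq2 (2.51%) and 1 with the replicate block (1.21%). On leaving out either control liver, few or no members were higher than control at either dose, and the calls over all tested genes fell as well. The cause was not tested. With 1 library left in a group, that library is assumed to vary like the other groups.

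Replicate numbers recur across groups, but deviations of same-numbered libraries correlated between -0.143 and 0.255, below 0.1 in 4 of 6 pairs of groups, so the numbers were not taken to pair livers. With the replicate block, 26 members were higher (15.1% of tested genes) and 1 lower (8%) in DEN+CCl4 against control. Against control, 17 were higher in DWYG-M (3.8%) and 16 in DWYG-H (6.17%). Between the groups that received DEN and CCl4, 0 were called, as were 0% of tested genes. With 2 livers a group, small differences are not detectable.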
